A study of Mus musculus with 51 samples.

Results

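The genes described here encode subunits of the mitochondrial respiratory chain in single mouse oocytes, in vitro fertilized (IVF) embryos and embryos cloned by nuclear transfer. They were chosen by symbol on the array platform: names that start with Nduf plus a, b, c, s or v and a number (complex I), Sdha to Sdhd (complex II), names that start with Uqcr (complex III), Cox4 to Cox8 (complex IV) and names that start with Atp5 (complex V). The rule found 81 of 18193 genes: 35 of complex I, 4 of complex II, 8 of complex III, 17 of complex IV and 17 of complex V. Each gene was read on 1 probe set, the one with the largest standard deviation over the 51 arrays among those with exactly 1 gene symbol. The rule reads symbols and no measured value, but it was chosen with earlier results of these data known. The choice of probe set favours those that varied most over the arrays, differences between groups included, and was made alike for all 18193 genes.

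Clones were made from Sertoli cells, the somatic support cells of the testis, of B6CBF1 mice, with B6D2F1 oocytes as recipients, and 5 single clones were taken at each of the 1-cell, 2-cell, 4-cell, 8-cell, morula and blastocyst stages. IVF embryos were B6D2F1 × B6D2F1, with 3 at each of the same stages, and 3 metaphase II (MII) oocytes were B6D2F1. Sampling was 16, 32, 48, 62, 72 and 84 hours after the eggs met sperm or were activated, in the order of the stages, and all embryos grew in KSOM medium. Total RNA of each oocyte or embryo was amplified in 2 cycles, labelled with biotin and hybridised to 1 Affymetrix array. The embryos are called biological replicates, but no label places them in separate litters or cultures, so p-values measure the spread between these embryos.

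The deposited values are log2 values that were centred on each probe set's own median over the 51 arrays. A value of 1 is therefore a doubling over that median, and a value says nothing about which of several genes was more abundant. Whether a gene was detected at all cannot be read from it. Marker genes followed the stage labels: the mean over 7 oocyte genes fell to between -3.36 and -3.30 in IVF blastocysts, against 5.46 to 5.71 in MII oocytes, and the mean over 7 trophectoderm genes was 5.11 to 5.89 in clone blastocysts and 5.40 to 5.64 in IVF blastocysts. Precision is limited by the number of arrays.

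Complexes I to IV pass electrons from NADH and succinate to oxygen and pump protons, except for complex II, which belongs to the Krebs cycle as well and pumps none. Complex V, the ATP synthase, lets the protons flow back and makes ATP. Mouse oocytes and cleavage-stage embryos carry mitochondria inherited from the oocyte and live mainly on pyruvate, and the blastocyst raises oxygen uptake when its trophectoderm begins to pump fluid. Nuclear genes give most subunits of the chain. The subunits encoded in mitochondrial DNA lie outside the rule.

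Promoters of respiratory chain genes are known for binding sites of NRF1, of the ETS family factor GABP (NRF2) and of YY1, so the letters of those sites were looked for. RefSeq promoter windows (GRCm38.p6, 250 bases before to 50 after the gene's start) matched 66 of the 81 genes. The NRF1 core, GCGCATGCG on either strand, stood in 7 of the 66 windows (10.6%) and in 489 of 27025 windows of all genes (1.8%). The ETS core, CCGGAAG on either strand, stood in 16 (24.2%) and in 2465 of all windows (9.1%). The YY1 core, ATGGCGGC on either strand, stood in 5 (7.6%), all of complex I, and in 642 of all windows (2.4%). At least 1 of the 3 stood in 24 of the 66 windows (36.4%) and in 3345 of all windows (12.4%). A match shows only that the letters are there. The 7 windows with the NRF1 core are shown because they spread over complexes I, III, IV and V, with the core in capitals, read 5′ to 3′ on the gene's strand.
Ndufa8, complex I, chr2:36049329-36049357, minus strand: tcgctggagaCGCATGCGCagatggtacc
Uqcr11, complex III, chr10:80406808-80406836, minus strand: atcgccttcaCGCATGCGCtatacgtctg
Uqcrc1, complex III, chr9:108936668-108936697, plus strand: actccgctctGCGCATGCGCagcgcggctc
Cox6a1, complex IV, chr5:115349101-115349130, minus strand: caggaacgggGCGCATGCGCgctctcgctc
Atp5g2, complex V, chr15:102671070-102671099, minus strand: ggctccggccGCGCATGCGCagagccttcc
Atp5k, complex V, chr5:108434430-108434459, minus strand: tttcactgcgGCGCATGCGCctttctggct
Atp5l, complex V, chr9:44920965-44920992, minus strand: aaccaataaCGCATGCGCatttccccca
In Uqcrc1, Cox6a1, Atp5g2 and Atp5k the core overlaps its own reverse complement, so the letters read the same on both strands.

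The ETS core is shown for genes that were lower in clone blastocysts, described further on, again in capitals and on the gene's strand.
Sdhb, complex II, chr4:140961267-140961293, plus strand: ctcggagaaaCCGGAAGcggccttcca
Uqcrh, complex III, chr4:116075064-116075090, minus strand: gtatgccgcaCTTCCGGccaggtcgcc
Atp5e, complex V, chr2:174464187-174464213, minus strand: acggccacagCTTCCGGtagccgctcg
Atp5h, complex V, chr11:115419941-115419967, minus strand: aaggagagaaCTTCCGGcaactctctt
Atp5md, complex V, chr19:47090629-47090655, minus strand: gagggggcgtCTTCCGGtcgggccgag
Cox6a1 and Atp5k, shown above with the NRF1 core, hold the ETS core as well.

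Most respiratory chain genes climbed in steps to a maximum at the blastocyst stage. In clones the group mean was highest in blastocysts for 63 of 81 genes (77.8%), against 19.3% of all genes, and lowest in 1-cell clones for 50 (61.7%), against 21.1%. In the oocyte and IVF series it was highest in blastocysts for 68 (84.0%), against 16.2% of all genes. It was lowest in MII oocytes for 40 (49.4%), against 14.4% of all genes, in IVF 1-cell embryos for 18 and in IVF 2-cell embryos for 13. An array reads RNA of the whole embryo after scaling, so fewer cells of a type and less RNA per cell cannot be told apart. Summarised as the median over the 81 genes on each array, clones lay between -2.34 and -1.74 at the 1-cell stage, -1.72 and -1.09 at the 2-cell stage, -0.17 and 0.01 at the 4-cell stage, -0.19 and 0.59 at the 8-cell stage, 0.53 and 0.86 in morulae and 1.32 and 1.52 in blastocysts. MII oocytes lay between -3.03 and -2.36. IVF embryos lay between -2.63 and -1.56 at the 1-cell stage, -1.50 and -0.86 at the 2-cell stage, -0.30 and -0.06 at the 4-cell stage, -0.0012 and 0 at the 8-cell stage, 0.39 and 0.52 in morulae and 1.70 and 1.88 in blastocysts. In morulae all 5 clones lay above all 3 IVF embryos, and in blastocysts all 5 lay below them.

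**Figure D1:**
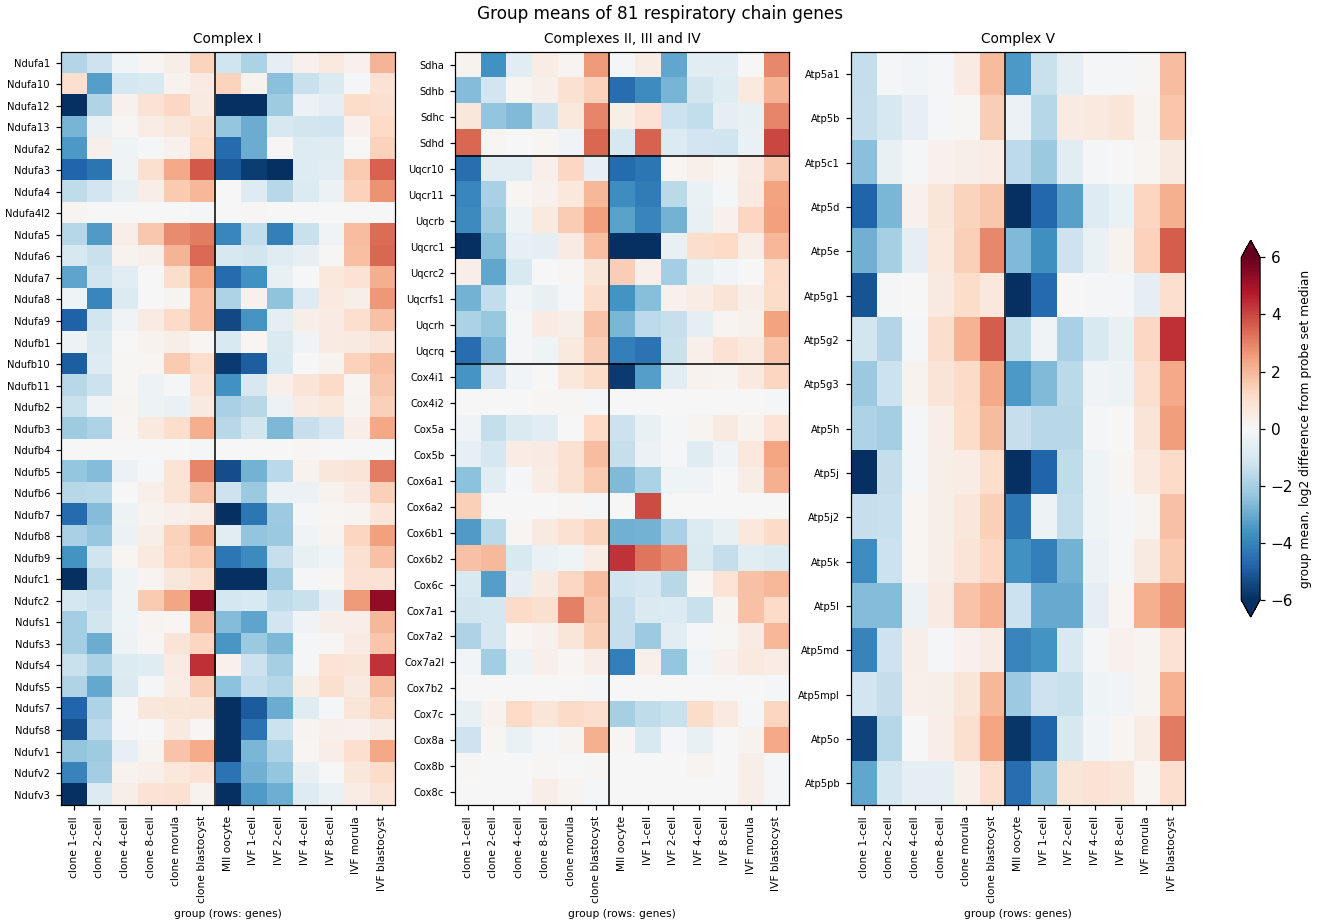
Group mean of each of the 81 genes (rows, by complex) in the 6 clone groups (5 embryos each) and in MII oocytes and the 6 IVF groups (3 each), as the log2 difference from the probe set's median over 51 arrays. Most rows run from blue at the 1-cell stage or in oocytes to red in blastocysts; Cox6b2 runs the other way and Cox6a2 is red at the 1-cell stage.

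Clone blastocysts lay wholly above 1-cell clones for 68 genes and wholly below for 6, against 25.1% and 51.8% of all genes, with a median difference of 4.00 log2 units. IVF blastocysts lay wholly above MII oocytes for 71 genes and wholly below for 10, against 27.8% and 58.1% of all genes. The median difference between IVF blastocysts and oocytes was 4.80 over the 81 genes and -0.082 over all genes. Complexes III and V moved furthest by this measure, with medians of 5.74 and 5.56, and complex I followed with 5.24. Complex II had a median of 3.96 and complex IV one of 2.55. Ndufv1, the complex I subunit that binds FMN and accepts electrons from NADH, stood at 2.09, 2.38 and 2.51 in IVF blastocysts and at -6.82, -6.52 and -7.14 in oocytes, the widest difference among the 81 at 9.15. All 17 complex V genes lay higher in IVF blastocysts. Of the 10 genes that lay lower, only Cox6b2, the testis-enriched form of a complex IV subunit, differed by more than 1 log2 unit, at -5.13.

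**Figure D2:**
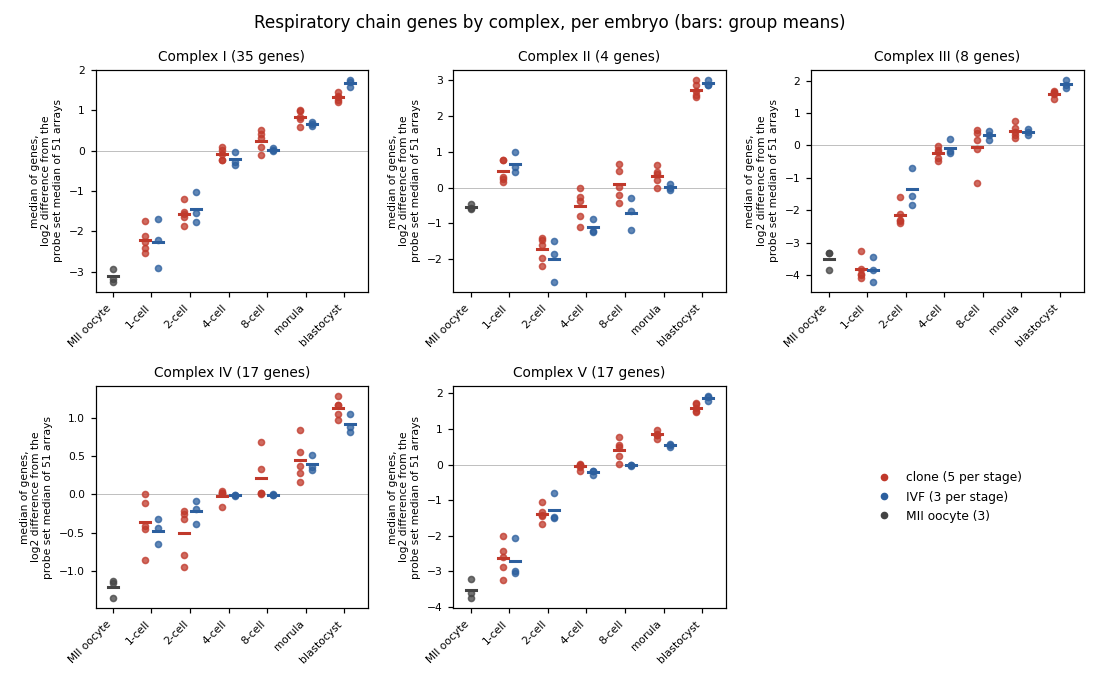
Median over the genes of each complex on each array (log2 difference from the probe set median) by stage; points are single embryos, bars are group means, clones stand left of IVF embryos and MII oocytes come first. Complexes I, III and V start lowest, complex II dips at the 2-cell stage, and all 5 complexes are highest in blastocysts.

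The first step, between oocyte and fertilized 1-cell embryo, already moved many of the genes, mostly upward. The share that fell was no larger than among all genes. In IVF 1-cell embryos 30 genes rose and 12 fell relative to MII oocytes, against 14.3% and 16.3% of all genes (limma, Benjamini-Hochberg adjusted p under 0.05 over 18193 genes, as in all tests here). Sdhd, which anchors complex II in the membrane, rose by 4.46, Cox7a2l, a factor that joins complexes III and IV into supercomplexes, by 4.42, Ndufv1 by 4.08 and Atp5j2, a membrane subunit of the ATP synthase, by 4.04. Atp5l, another membrane subunit of the synthase, fell by 1.74, and the complex I accessory subunits Ndufb8, Ndufc1 and Ndufs4 fell by 1.70, 1.66 and 1.56. The total of 42 became 17 after quantile normalization.

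Between the 1-cell and 2-cell stages, when the mouse embryo clears maternal RNA and starts broad transcription, complexes parted. In 2-cell clones 37 genes rose and 15 fell relative to 1-cell clones, against 16.7% and 24.6% of all genes. The largest rises were those of Ndufc1 (5.72), the accessory complex I subunit Ndufv3 (5.23), the synthase stalk subunit Atp5j (5.06) and Atp5g1 (5.05). Ndufa10 of complex I fell by 4.34, Sdha by 3.87, Ndufa8 by 3.64 and the complex III core subunit Uqcrc2 by 3.50 in clones. The second Ndufa10 probe set moved little, with means of 0.29 in 1-cell and -0.05 in 2-cell clones. In IVF 2-cell embryos 34 genes rose and 13 fell, against 17.2% and 18.7% of all genes. In this IVF step 5 of 8 complex III genes rose, with a median of 2.69 over the 8, while 3 of 4 complex II genes fell, with a median of -2.88. Uqcrc1, a core subunit of complex III, stood at -1.08, -0.63 and 0.36 in IVF 2-cell embryos, against -6.44, -6.19 and -6.44 in IVF 1-cell embryos, a difference of 5.91. Ndufc1 rose by 5.96, Atp5g1, one of 3 genes for the rotating c subunit of the synthase, by 4.61 and the small complex III subunit Uqcr10 by 4.49.

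The step to the 4-cell stage was almost wholly upward. In 4-cell clones 53 genes rose and 2 fell relative to 2-cell clones, against 15.1% and 14.7% of all genes. In IVF 4-cell embryos 40 rose and 1 fell relative to IVF 2-cell embryos, against 10.5% and 13.3%. The accessory complex I subunit Ndufa3 rose by 4.19 in clones and 5.26 in IVF embryos, and Ndufa5, another, rose by 3.79 in clones and 2.78 in IVF embryos. Ndufa8 and the synthase subunit Atp5d rose by 3.10 and 3.02 in clones, and Ndufs3, a subunit of the electron-carrying arm, and Atp5k by 2.59 and 2.50 in IVF embryos. Cox6b2 fell by 2.85 in clones and fell by 3.68 in IVF embryos. Ndufa2 also fell in clones, by 0.60.

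Little moved between the 4-cell and 8-cell stages. In clones 7 rose and none fell, against 2.33% and 4.17%, among them Ndufc2 (1.79) and Ndufa5 (1.25) of complex I, the c subunit gene Atp5g2 (1.13) and Cox6c of complex IV (1.12). Those 7 became 4 without clone 5 of the 4-cell stage or clone 3 of the 8-cell stage, 11 without clone 5 of the 8-cell stage, and 27 after quantile normalization. In IVF embryos no gene passed in either direction (limma, 8 at an unadjusted p under 0.05), against 1.23% higher and 0.759% lower of all genes.

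Clone morulae had 17 genes higher and none lower than 8-cell clones, against 9.81% and 7.61%, led by Cox7a1 (2.06), the membrane anchor Sdhc of complex II (1.93), Ndufa6 (1.77) and Ndufv1 (1.54). Those 17 became 11 without clone 5 of the 8-cell stage. IVF morulae had 14 genes higher and 1 lower than IVF 8-cell embryos, against 7.09% and 10.1% of all genes. Ndufc2 rose by 3.17, Ndufa3 by 2.28, Ndufa5 by 2.05 and Atp5l by 2.01, and Atp5b, the catalytic beta subunit of the synthase, fell by 0.55. Quantile normalization raised the IVF counts to 39 higher and 3 lower.

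The last step raised many genes again. In clone blastocysts 40 rose and 4 fell relative to clone morulae, against 16.9% and 17.6% of all genes, and quantile normalization gave 16 higher and 7 lower. Ndufs4, an accessory subunit needed to complete complex I, rose by 3.90, Sdhd by 3.66, Ndufc2 by 2.90 and Sdha by 2.36 in clones. Uqcr10 and Cox7a1 fell by 1.70 and 1.44 there, and Cox4i2 and Cox7b2 fell by 0.14 and 0.07 in probe sets that hardly varied over the arrays. In IVF blastocysts 44 genes rose and none fell relative to morulae, against 12.6% and 10.1% of all genes, and all 4 genes of complex II were among those that rose. Sdhd rose by 4.42, Ndufs4 by 3.61, Sdhc by 3.40 and Atp5g2 by 3.13 in IVF embryos. The 4 probe sets of Ndufs4 did not share 1 course over this step. Another also rose in mean, from 1.21 to 2.91 in clones and from 1.09 to 2.66 in IVF embryos. A further one moved little, from -0.006 to -0.06 in clones and from -0.01 to 0.24 in IVF embryos. The last fell, from 0.39 to -0.14 in clones and from 0.95 to -1.01 in IVF embryos.

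Complex II had a course unlike the medians of the other complexes. It oxidises succinate with the flavoprotein Sdha and the iron-sulfur protein Sdhb, held in the membrane by Sdhc and Sdhd. In clones Sdhd lay between 3.07 and 3.73 at the 1-cell stage, between -1.09 and 1.40 at the 2-cell stage and between 3.10 and 3.79 in blastocysts. It stood at -1.34, -0.41 and -1.08 in MII oocytes, 3.98, 3.97 and 2.60 in IVF 1-cell embryos, -1.09, -0.58 and -0.73 in IVF 2-cell embryos, and 4.22, 3.71 and 4.16 in IVF blastocysts. It was thus high at 2 separate times in both series, with low values between. Its second probe set averaged -0.12 in IVF 1-cell embryos, so the 1-cell peak rests on 1 probe set.
Sdha stood at 0.41, -0.52 and -0.07 in oocytes, 0.61, 0.31 and 0.42 in IVF 1-cell embryos, -2.80, -3.93 and -2.62 in IVF 2-cell embryos and 2.97, 3.12 and 2.57 in IVF blastocysts. Its second probe set had the same dip, with means of 1.69 in oocytes, -2.24 in IVF 2-cell embryos and 1.34 in IVF blastocysts. From the 1-cell to the 2-cell stage Sdha fell by 3.87 ± 0.41 (SE, adjusted p = 1.03e-08) in clones and by 3.56 ± 0.33 (adjusted p = 2.53e-07) in IVF embryos. Sdhc fell by 3.07 in clones and 2.20 in IVF embryos over the same step, but its second probe set moved little, with means of -0.31 and -0.07 in 2-cell and 1-cell clones and of -0.19 and -0.09 in IVF 2-cell and IVF 1-cell embryos. In blastocysts that probe set averaged 0.81 in clones and 0.24 in IVF embryos. Sdhb began low, at -4.48, -4.97 and -4.26 in oocytes, and had no 1-cell maximum.

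**Figure D3:**
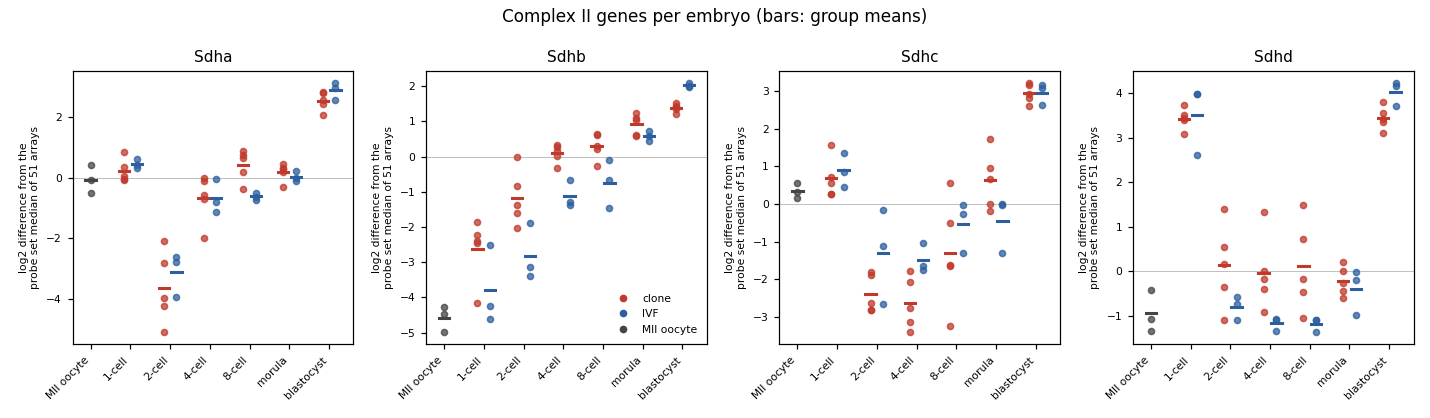
Values of Sdha, Sdhb, Sdhc and Sdhd (log2 difference from the probe set median) in every embryo by stage, with bars at group means, clones left of IVF embryos and MII oocytes first. Sdha, Sdhc and Sdhd are lower at the 2-cell than at the 1-cell stage in both series, and all 4 are highest in blastocysts, apart from the 1-cell peak of Sdhd.

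Tissue-specific forms of complex IV subunits followed their own courses. Cox6b2 stood at 4.57, 4.09 and 4.28 in MII oocytes, 3.28, 3.60 and 2.77 in IVF 1-cell embryos, 3.44, 2.71 and 2.36 in IVF 2-cell embryos and -1.13, -0.56 and -0.84 in IVF 4-cell embryos, so its fall lay at the step to the 4-cell stage. The widely expressed Cox6b1 ran the other way. Cox6a2, the heart and skeletal muscle form, stood at 0.00, 2.20, 0.27, 1.66 and 2.97 in 1-cell clones and at 3.94, 4.23 and 3.61 in IVF 1-cell embryos. The clones were widely spread below every IVF embryo, and the difference of -2.51 did not pass (adjusted p = 0.115). In IVF 1-cell embryos Cox6a2 rose by 3.92 ± 0.10 (SE, adjusted p = 1.86e-13) over oocytes, without overlap. At the IVF 2-cell stage it fell by 3.93 (adjusted p = 8.58e-14). Its standard deviation was 0.31 in IVF 1-cell embryos, against 0.0041 in oocytes and 0.0052 in IVF 2-cell embryos. The fit pools the spread over all oocyte and IVF groups. That SE and both adjusted p-values therefore understate the spread between IVF 1-cell embryos. A second Cox6a2 probe set averaged 2.14 in 1-cell clones and 2.51 in IVF 1-cell embryos.
Cox7a1, also a muscle form, was highest in morulae: 3.29, 3.07, 3.02, 2.53 and 3.29 in clones, against 1.86, 3.03 and 0.44 in IVF embryos. Those groups overlap. Cox4i2, Cox7b2, Cox8b, Cox8c, Ndufa4l2 and Ndufb4 had a standard deviation under 0.3 over the 51 arrays, as did 29.2% of all genes, and show no course. Among the c subunit genes of the synthase, Atp5g1 stood lowest in oocytes, at -7.56, -6.77 and -7.56, and had reached -0.28, -0.11 and 0.25 by the IVF 2-cell stage. Atp5g2 climbed from a mean of -1.94 in IVF 2-cell embryos to 4.40, 4.25 and 4.45 in IVF blastocysts. The other Atp5g2 probe sets averaged 0.12 and -0.03 in IVF blastocysts.

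**Figure D4:**
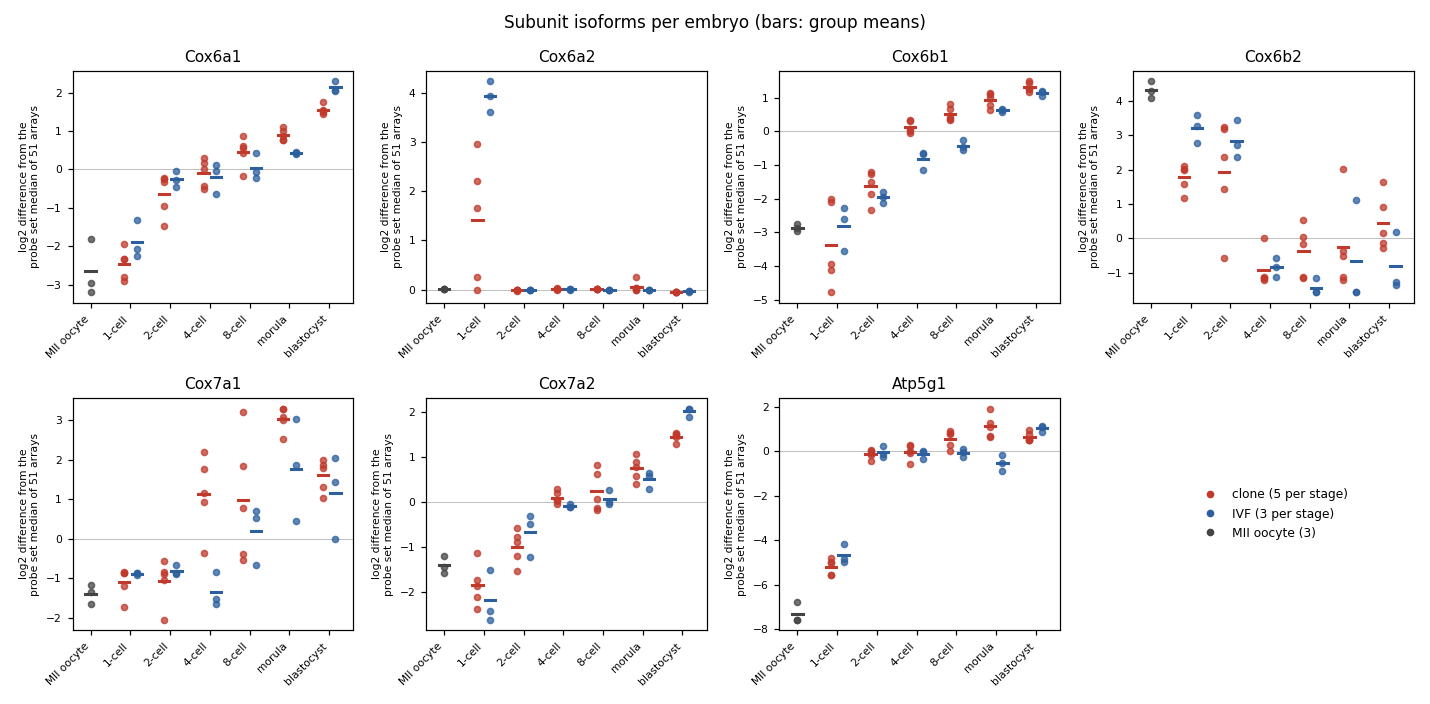
Values (log2 difference from the probe set median) of 7 subunit forms in every embryo by stage, clones left of IVF embryos, with MII oocytes first and bars at group means. Cox6b2 drops after the 2-cell stage, Cox6a2 is raised at the 1-cell stage and the Cox7a1 means are highest in morulae.

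Clones and IVF embryos were next compared at each stage, the comparison the study's design names. At the 1-cell stage 1 of the 81 genes was higher and 2 were lower in clones, against 3.52% and 2.79% of all genes. Ndufa10 stood at 1.33, 1.05, 1.21, 0.89 and 0.68 in clones and at 0.13, 0.09 and 0.41 in IVF embryos, a difference of 0.82 ± 0.16 (SE, adjusted p = 0.0354). Its second probe set averaged 0.29 in clones and 0.27 in IVF embryos, so the difference rests on 1 probe set. Cox6b2 stood at 2.11, 2.00, 1.18, 1.57 and 2.00 in clones and at 3.28, 3.60 and 2.77 in IVF embryos, a difference of -1.44 ± 0.28 (adjusted p = 0.0327). The groups do not overlap for either gene, but the same comparison picked both. Over the 81 genes clones lay wholly above IVF embryos for 1 and wholly below for 7, against 1371 and 1315 of 18193. Ndufv2, an iron-sulfur subunit of complex I, differed by -1.09 ± 0.21 (adjusted p = 0.0346). The hybridisation controls, transcripts spiked into every sample, lay between -1.02 and 0.50 in clones and between 0.53 and 0.79 in IVF embryos. No gene passed with their mean in the fit, 9 passed in a fit over all 51 arrays, and leaving out 1 embryo left 2 without IVF embryo 3, 0 without clone 2 and 1 without any other.

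In 2-cell clones 1 of the 81 genes stood higher and 5 stood lower, against 0.511% and 1.86% of all genes. Atp5b stood at -1.02, -0.74, -0.90, -1.27 and -0.87 in clones and at 0.42, 0.51 and 0.61 in IVF embryos, a difference of -1.47 ± 0.12 (SE, adjusted p = 0.00553). Atp5pb, the stalk subunit b of the synthase, differed by -1.81, Cox6c by -1.63, Ndufb11 of complex I by -1.55 and Cox5a, a nuclear subunit of complex IV, by -1.33. Ndufv3 was the gene that rose: it stood at -0.80, -0.96, -0.56, -1.23 and -0.63 in clones and at -2.71, -3.74 and -2.33 in IVF embryos, 2.09 ± 0.33 apart (adjusted p = 0.0339). Over the 81 genes clones lay wholly above IVF embryos for 5 and wholly below for 13, against 734 and 1436 of 18193. Clones and IVF embryos do not overlap for any of the 6 genes that passed, but the same comparison picked them. The hybridisation controls did not overlap either, at 0.57 to 1.22 in clones and -0.73 to -0.23 in IVF embryos. With them in the fit no gene passed, and with the 3′ to 5′ difference of the control transcripts in it 1 did; leaving out 1 embryo left 4 without clone 2 and between 1 and 3 without any other. A fit over all 51 arrays called 18, with 4 higher and 14 lower.

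In 4-cell clones 4 of the 81 genes stood higher and 4 lower, against 0.462% and 1.8% of all genes. Ndufb3 of complex I was higher by 1.49 and Ndufa13, also of complex I, by 1.16, with clones at 0.00, -0.09, 0.00, 0.08 and 0.38 and IVF embryos at -0.92, -0.98 and -1.35. Sdhb and Cox6b1 were higher by 1.20 and 0.95. Uqcrc1 stood at -0.09, -0.29, -0.73, -0.63 and -0.83 in clones and at 0.97, 1.20 and 0.97 in IVF embryos, a difference of -1.56 ± 0.18 (SE, adjusted p = 0.0118). Atp5pb, the Rieske iron-sulfur protein Uqcrfs1 and Cox4i1, a regulatory subunit of complex IV, differed by -1.38, -0.59 and -0.36. As at the 2-cell stage the hybridisation controls did not overlap, at 0.69 to 1.19 in clones and -0.51 to -0.13 in IVF embryos, and no gene passed with them in the fit. With the 3′ to 5′ difference in the fit 1 gene passed, and leaving out 1 embryo left 4 without IVF embryo 1, 2 or 3, 5 without clone 3 and 6 or 7 without any other. Of 5 inner cell mass markers 2 were lower in the same 4-cell clones, with a median difference of -1.19, and the mean over the list lay between -1.27 and 0.64 in clones and between 0.52 and 1.90 in IVF embryos; its part in the result was not tested.

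In 8-cell clones 9 of the 81 genes stood higher and none lower, against 2.15% and 4.47% of all genes. They were Ndufa5 (1.85), Ndufa13 (1.65), Ndufb3 (1.58), Ndufa12 (1.45), Ndufv3 (1.26), Atp5d (1.12), Atp5g3, Cox6b1 and Atp5k. Ndufb3 stood at 0.52, 0.44, 0.62, 0.54 and 0.83 in clones and at -0.79, -0.86 and -1.32 in IVF embryos, with no overlap, 1.58 ± 0.14 apart (SE, adjusted p = 0.00405). Counted by overlap alone, clones lay wholly above IVF embryos for 26 genes and wholly below for 8, against 37.1% and 11.2% of all genes, which is no more than the background. No gene passed with the hybridisation controls in the fit, which lay between -0.03 and 0.96 in clones and between -0.44 and -0.24 in IVF embryos, and 21 passed in a fit over all 51 arrays, 12 higher and 9 lower. Quantile normalization gave 14, all higher. In the same comparison 3 of 7 oocyte markers were lower in clones (median -1.22), with list means of -1.53 to -1.03 in clones and 0.09 to 0.62 in IVF embryos, and 3 of 5 inner cell mass markers were lower (median -0.88), with list means of -0.50 to 0.70 in clones and 0.67 to 1.32 in IVF embryos. Of the Sertoli cell markers 1 of 11 was lower and of the cumulus cell markers 1 of 8 was higher. The part of these lists in the result was not tested.

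In morulae no gene passed (limma, 19 of 81 at an unadjusted p under 0.05), against 0.077% higher and 0.0879% lower of all genes. The median difference over the 81 genes was 0.150. Atp5g1 stood at 0.63, 1.28, 1.10, 0.68 and 1.91 in clones and at -0.89, -0.18 and -0.52 in IVF embryos without overlap, yet its difference of 1.65 did not pass (adjusted p = 0.122).

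In blastocysts the genes that passed were mostly lower in clones. Of the 81 genes 20 were lower and 2 higher in clones, against 3.34% and 2.84% of all genes. The lower genes were 8 of complex I, 1 of complex II, 3 of complex III, 2 of complex IV and 6 of complex V. The median difference was -0.214 over the 81 genes and -0.010 over all genes, and 15 of the 81 differences were above 0, against 7355 of 18193. Complex II had a median of -0.465, complex V of -0.341, complex III of -0.323 and complex I of -0.259, while complex IV had one of -0.014. For complex IV the direction depends on the summary, since the median over its genes on each array lay between 0.97 and 1.29 in clones and between 0.81 and 1.06 in IVF embryos. Clones lay wholly below IVF embryos for 35 genes and wholly above for 2, against 9.94% and 6.34% of all genes. Most differences were small beside those between stages.

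Uqcr10, a small complex III subunit, differed most. It stood at 0.00, -0.64, -0.40, -0.52 and -0.80 in clone blastocysts and at 1.88, 1.65 and 1.27 in IVF blastocysts, a difference of -2.07 ± 0.21 (SE, adjusted p = 0.00631). All 3 of its probe sets were lower in clones, with means of -0.47 and 1.60, -0.40 and 1.51, and 0.58 and 1.77 in clone and IVF blastocysts. Clone morulae had averaged 1.23 and IVF morulae 0.47, so the group means moved in opposite directions over the last step. The change from morula to blastocyst differed between clones and IVF embryos by -2.83 ± 0.64 (SE, interaction contrast over 51 arrays, adjusted p = 0.0084).

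In complex V the oligomycin sensitivity protein Atp5o, which ties the catalytic head to the stalk, stood at 2.46, 2.38, 2.26, 2.43 and 2.43 in clone blastocysts and at 3.09, 3.00 and 3.27 in IVF blastocysts, a difference of -0.73 ± 0.07 (SE, adjusted p = 0.00597). Atp5e, the epsilon subunit of the head, stood at 3.00, 2.92, 2.85, 2.83 and 2.87 in clones and at 3.64, 3.47 and 3.78 in IVF embryos, a difference of -0.74 ± 0.07 (adjusted p = 0.00606). Neither overlaps. Atp5d, Atp5h, Atp5k and Atp5md were lower too. The catalytic subunits Atp5a1 and Atp5b did not pass, with differences of 0.05 and -0.21.
In complex II, Sdhb stood at 1.52, 1.22, 1.41, 1.35 and 1.43 in clone blastocysts and at 1.97, 2.08 and 2.00 in IVF blastocysts, a difference of -0.64 ± 0.07 (SE, adjusted p = 0.0073). Sdhd, Sdha and Sdhc differed by -0.59, -0.34 and -0.01 and did not pass. In complex I, Ndufa8 stood at 1.71, 1.82, 1.77, 1.75 and 1.97 in clones and at 2.40, 2.76 and 2.60 in IVF embryos, a difference of -0.78 ± 0.09 (adjusted p = 0.00932). Ndufb2 and Ndufb10, both membrane-arm subunits, differed by -0.87 and -0.74. Also lower were Ndufa12, Ndufa10, Ndufs7, Ndufa4 (named for complex I and now placed in complex IV) and Ndufa5. For Ndufa10 the second probe set averaged 0.77 in clones and 0.85 in IVF embryos, against 0.51 and 0.87 on the one kept. The NADH-oxidising Ndufv1 did not pass, at -0.12.
In complex III, Uqcrh, the hinge protein that meets cytochrome c, and Uqcrc2 were lower beside Uqcr10, whereas Uqcrc1 and Uqcrfs1 differed by -0.21 and -0.08 and did not pass. In complex IV, Cox7a2 and Cox6a1, widely expressed forms, were lower, and Cox4i1 did not pass, at -0.20. The second Cox6a1 probe set averaged 0.31 in clones and 0.23 in IVF embryos, so the Cox6a1 difference rests on 1 probe set. Cox5a was higher, at 1.03, 1.17, 1.31, 1.25 and 1.17 in clones and 0.80, 0.81 and 0.91 in IVF embryos, 0.35 ± 0.06 apart (SE, adjusted p = 0.0305). Ndufb6 of complex I was higher by 0.35 as well. The X-linked genes Ndufb11 and Ndufa1 differed by -0.77 and -0.67 and did not pass (adjusted p = 0.139 and 0.11). Sertoli cells are male, and the labels do not give the sex of the IVF embryos.

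**Figure D5:**
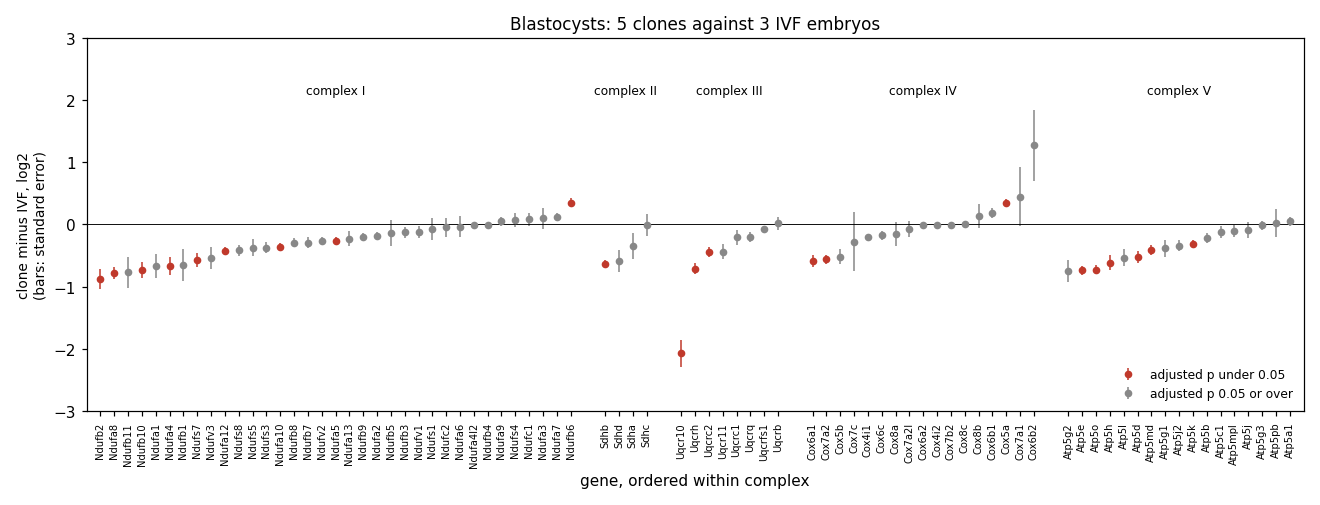
Clone minus IVF difference in blastocysts for each of the 81 genes (log2, 5 clones and 3 IVF embryos, bars are the standard error), ordered within complex; red points passed an adjusted p of 0.05. The 20 lower genes lie between -2.07 and -0.26, and the 2 higher genes, Ndufb6 and Cox5a, at 0.35.

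Several other measures moved with the blastocyst result. The 3′ to 5′ difference of the Actb and Gapdh control probe sets, which reflects how far amplified RNA reaches from the 3′ end, lay between -1.52 and -0.72 in clone blastocysts and between -2.36 and -1.63 in IVF blastocysts, without overlap. No gene passed with that difference in the fit, a term chosen after the data were seen, and its share in the result cannot be told apart from that of the group. In that fit the difference was -2.21 for Uqcr10 (adjusted p = 0.127), -0.52 for Atp5o (adjusted p = 0.11), -0.53 for Atp5e (adjusted p = 0.119), -0.73 for Sdhb (adjusted p = 0.113) and -0.87 for Ndufa8 (adjusted p = 0.147). The mean over 5 inner cell mass markers lay between 0.82 and 1.89 in clones and between 2.31 and 2.56 in IVF embryos, and 1 of the 5, Klf2, was lower (-1.38, adjusted p = 0.0316). The mean over the Sertoli cell markers lay between 0.12 and 0.58 in clones and between -0.58 and 0.02 in IVF embryos, and none of the 11 measured passed. Their median difference was 0.009 and their highest 5.34, so 1 gene weighs heavily in that mean. The part of either list in the result was not tested. Leaving out 1 embryo left between 10 and 18 genes, with 10 without IVF embryo 2, 11 without IVF embryo 1, clone 2 or clone 4 and 14 without clone 3. Uqcr10, Atp5o, Atp5e, Sdhb and Ndufa8 passed without any 1 of the 8 embryos. With the hybridisation controls in the fit 8 genes passed, all lower, and 1 passed, also lower, in a fit over all 51 arrays, fewer than that fit called at the 1-cell, 2-cell or 8-cell stage.

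Of the 20 genes that were lower on the probe set kept, 19 had a promoter window. The NRF1 core stood in 3 of them (Ndufa8, Cox6a1 and Atp5k), the ETS core in 7 (Sdhb, Uqcrh, Cox6a1, Atp5e, Atp5h, Atp5k and Atp5md) and the YY1 core in 1. Genes with the NRF1 core that were not lower were Uqcr11, Uqcrc1, Atp5g2 and Atp5l. The ETS core also stood in 9 genes that were not lower, namely Ndufb6, which was higher, and Ndufb7, Ndufs3, Ndufs8, Sdhd, Uqcr11, Cox6b1, Cox8a and Atp5l, which did not pass.

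Other genes of oxidative metabolism were read from lists for comparison. In blastocysts 4 of 45 assembly factors of the chain were lower in clones, with Uqcc2 (-1.05), Pet100 (-0.94), Uqcc1 (-0.58) and Surf1 (-0.46), and 1 was higher, Cox18 (0.83), against 3.34% lower and 2.84% higher of all genes. Among 21 regulators of mitochondrial transcription and biogenesis 4 were lower: the mitochondrial elongation factor Tefm (-0.93), the GABP subunit Gabpa (-0.78), the RNA-binding Slirp (-0.58) and the nuclear receptor Esrra (-0.42). Among 17 Krebs cycle and pyruvate dehydrogenase genes 1 was higher, Sucla2 (0.54), and none lower. Of 13 genes for electron carriers, metabolite carriers, porins and the ATPase inhibitor Atpif1, 1 was lower, the electron carrier Etfb (-0.64). Earlier, at the 1-cell stage, 4 of the 21 regulators were lower in clones, against 2.79% of all genes, among them the mitochondrial rRNA methyltransferase Tfb1m (-2.92), the mitochondrial helicase Twnk (-1.74) and the transcription factor Nrf1 (-1.16). At the 8-cell stage Polg, the mitochondrial DNA polymerase, and Tefm differed by -3.17 and -2.34, the 2 of the 21 that were lower there, against 4.47% of all genes. In the step to the 2-cell stage, 11 of the 17 Krebs cycle and pyruvate dehydrogenase genes were lower and 4 higher in 2-cell than in 1-cell clones, with a median of -1.96, against 24.6% lower and 16.7% higher of all genes. In the same list 9 were lower and 4 higher in IVF 2-cell than in IVF 1-cell embryos, with a median of -1.34, against 18.7% lower and 17.2% higher of all genes.

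Whether the steps between stages differed between clones and IVF embryos was tested by interaction contrasts over the 51 arrays. For the step to the 2-cell stage 5 genes had a higher and 8 a lower change in clones, against 3.96% and 7.24% of all genes. For the step to the 4-cell stage 2 had a higher change and none a lower one, against 1.45% and 1.19%. None passed for the step to the 8-cell stage (limma, 3 at an unadjusted p under 0.05), against 0.286% and 1.03% of all genes. For the step to the morula 1 had a higher and 2 a lower change, against 4.28% and 1.38%, and for the step to the blastocyst none had a higher and 3 a lower change, against 0.984% and 0.638%.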

How the data were processed

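Single MII oocytes, IVF embryos and Sertoli cell clones were measured on 51 Affymetrix arrays in 13 groups. The authors deposited log2 values made with RMA (per the submitters' processing notes; its version and settings are not given in the sources used here). These log2 values were centred by the authors on each probe set's median, as the values show: 94.3% of probe sets have exactly 1 array at 0, with 24 to 26 arrays below 0. The log base was inferred, since the widest probe set spans 13.8 units and a 16-bit scanner spans 11.1 in natural logs. Centring removes levels, so no detection filter was applied, and amplification of single embryos can add noise to low transcripts.

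Of 45101 probe sets, 64 were controls, 34945 had 1 symbol in the platform annotation, 932 several and 9160 none. Each of the 18193 genes kept its probe set with the largest standard deviation. Of the 81 respiratory chain genes 48 had over 1 probe set, and in 36 of those another correlated above 0.8 with the one kept. Cox7b is not analysed here.

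Groups came from the labels. The test was limma 3.58.1 in R 4.3.3 (lmFit and eBayes), with Benjamini-Hochberg adjustment over the 18193 genes and a threshold of 0.05: clones minus IVF embryos on the 8 arrays of a stage, IVF steps on 21 arrays, clone steps on 30 and interactions on 51. It was tested on simulated data. Comparisons that share a group share its arrays. Residuals of equally numbered clones and IVF embryos correlated between -0.204 and 0.102 over genes. That shows no sign that the numbers pair embryos, but with few pairs per stage it cannot exclude it. Alternatives were array centring, quantile normalization, the mean of a gene's probe sets, leaving out the 30% of genes with the smallest standard deviation, a replicate block, covariates, 1 fit over all arrays and leaving out each embryo. Per stage, up to 6 genes in each direction are named by size among those that passed, up to 4 per step and 3 per interaction, beside core subunits and isoforms. Genes, lists and rules were chosen with earlier results of these data known.

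Oocyte, trophectoderm, inner cell mass, Sertoli cell, cumulus cell and sperm markers were read beside the results; between clones and IVF embryos 0 of 7 oocyte, 0 of 7 trophectoderm, 0 of 8 cumulus and 0 of 8 sperm markers passed in blastocysts. Earlier, 2 oocyte markers were higher in 1-cell clones and 1 Sertoli cell marker in clone morulae, no marker passed at the 2-cell stage, and the 4-cell and 8-cell counts stand beside those results.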

Additional observations from a re-analysis of the deposited data

Results flagged for a closer look

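In 78 groups of 5 clones examined, 4 held a clone that stood apart from the others by Dixon's ratio, close to the 1 in 20 that chance gives. Clone 2 of the 1-cell stage had Sdhb at -4.17, with the nearest clone at -2.45. Clone 5 of the 1-cell stage had Uqcrc1 at -6.41, with the nearest at -6.43, in a group that hardly varied. Clone 3 of the 8-cell stage had Ndufa5 at 2.14, with the nearest at 1.61, and clone 5 of that stage had Atp5a1 at -0.89, with the nearest at 0.03.

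The other results listed are steps that differed between clones and IVF embryos by an interaction contrast (limma, adjusted over 18193 genes); a positive value is a higher change in clones. From the 1-cell to the 2-cell stage the change was higher for Ndufv3 by 4.77 ± 0.57 (SE, adjusted p = 8.94e-08), for Cox6a2 by 2.50 ± 0.43 (adjusted p = 5.29e-05) and for Ndufb3 by 1.87 ± 0.44 (adjusted p = 0.00311). It differed by -2.02 ± 0.44 for Uqcrc1, -1.83 ± 0.39 for Atp5b and -1.81 ± 0.36 for Ndufb6. Cox6a2 had a standard deviation of 1.27 in 1-cell clones and 0.0046 in 2-cell clones, yet 1 spread is shared over the 51 arrays. Its difference between 1-cell clones and IVF embryos did not pass. The second Cox6a2 probe set averaged 2.14 and -0.05 in 1-cell and 2-cell clones, and 2.51 and 0.01 in IVF embryos of those stages. Ndufv3 stood at -6.55, -7.82, -5.86, -4.70 and -5.40 in 1-cell clones, below IVF embryos at -3.57, -3.08 and -3.49. It was above them at the 2-cell stage. The 1-cell difference of Ndufv3 did not pass. Its standard deviation was 1.19 in 1-cell clones and 0.27 in 2-cell clones, again under 1 shared spread.

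From the 2-cell to the 4-cell stage the change was higher in clones for Cox5b by 2.00 ± 0.40 and for Ndufb6 by 1.56 ± 0.36. From the 8-cell stage to the morula it was higher for Uqcrc1 by 1.84 ± 0.44 and lower for Ndufc2 and Ndufa13, at -2.36 ± 0.58 and -1.23 ± 0.31. From the morula to the blastocyst it was lower for Uqcr10, Atp5g1 and Atp5g2, at -2.83 ± 0.64, -2.03 ± 0.35 and -1.58 ± 0.42. Atp5g1 and Atp5g2 began that step higher in clone morulae, at 1.12 and 2.06 in mean, against -0.53 and 1.23 in IVF morulae, and ended lower in clone blastocysts, at 0.65 and 3.62, against 1.03 and 4.37 in IVF blastocysts.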

How the results depend on the processing

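Counts below are of the 81 genes that passed. Centring each array on its median and leaving out the 30% of genes with the smallest standard deviation kept every count within 1.5 times. With the replicate number as a block the count was 1 at the 1-cell stage and 0 at the 2-cell, 4-cell, 8-cell and blastocyst stages. No label says whether the numbers pair embryos, and the block leaves few arrays. With the hybridisation controls in the fit it was 0 at the 1-cell, 2-cell, 4-cell and 8-cell stages and 8 in blastocysts, and with the 3′ to 5′ control difference, added after the data were seen, 1 at the 2-cell and 4-cell stages and 0 in blastocysts. Those covariates differed between clones and IVF embryos at several stages, so their part cannot be told apart from the group's. One fit over all 51 arrays gave 9 at the 1-cell, 18 at the 2-cell and 21 at the 8-cell stage, 1 in morulae and 1 in blastocysts, and the cause was not tested. Quantile normalization gave 14 for clones against IVF embryos at the 8-cell stage, 17 for IVF 1-cell embryos against oocytes, 3 for the IVF step to the 8-cell stage, 42 for that to the morula, 27 for the clone step to the 8-cell stage, 23 for that to the blastocyst, and 1 and 13 (2 higher and 11 lower) for the interactions of the steps to the 8-cell stage and the morula. The mean of a gene's probe sets gave 3 for the 2-cell stage, 1 for the IVF step to the 8-cell stage and 4 for the interaction of the step to the 4-cell stage.

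Leaving out 1 embryo gave 0 to 2 for clones against IVF embryos at the 1-cell, 1 to 4 at the 2-cell, 4 to 7 at the 4-cell and 6 to 11 at the 8-cell stage, 0 to 1 in morulae (1 without clone 4) and 10 to 18 in blastocysts. Clone steps in order gave 50 to 52, 52 to 56, 4 to 11, 11 to 25 and 39 to 44. IVF steps, beginning with the step out of the oocyte, gave 38 to 42, 45 to 53, 31 to 42, 0 to 1 (1 without 4-cell embryo 2), 10 to 15 and 34 to 37. Interactions gave 12 to 16, 2 to 4 (4 without IVF 4-cell embryo 2, 2-cell clone 2 or 4-cell clone 1), 0, 3 to 6 (6 without 8-cell clone 2) and 2 to 3.

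Medians by complex moved where the mean of a gene's probe sets was used, most of them towards 0, and that of complex V in the IVF step to the morula away from it. The cause was not tested. Between clones and IVF embryos at the 4-cell stage complex III had -0.169. For the IVF step to the 2-cell stage complexes II and III had -1.40 and 1.84, for that to the morula complexes I and V had 0.422 and 0.514, and for that to the blastocyst complexes I to V had 0.912, 1.58, 0.893, 0.034 and 0.970. For the clone steps complex II had -1.53 at the 2-cell stage, complex III 1.70 at the 4-cell stage, and complexes II, III and V 1.12, 0.826 and 0.585 at the blastocyst. For the IVF step to the 8-cell stage complex IV had 0.140, and 0.182 with centred arrays.

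Directions turned for Atp5a1 and Cox4i1. With the mean of its probe sets Atp5a1 gave -1.16 for the clone and -0.65 for the IVF step to the 2-cell stage, 1.57 for the clone step to the 4-cell stage and 0.84 for that step's interaction; quantile normalization gave -0.020 for the IVF step to the 2-cell stage. Cox4i1 gave -0.039 for the clone step to the blastocyst after quantile normalization. Arrays without levels leave signal over background unknown, so changes of dim transcripts may be understated.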
